A study of Rattus norvegicus with 3 samples.

Results

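Genes of the extracellular matrix, of the integrins that bind it and of the proteases that cut it were examined in rat kidney inner medulla after 1 month of lithium. They were chosen by gene symbol: collagen chains (Col and a digit), Mmp, Timp, laminin (Lama, Lamb, Lamc), integrin (Itga, Itgb), Thbs, Adam and a digit, Adamts and Ccn genes, with Fn1, Sparc, Dcn, Bgn, Eln and Lox. The rule found 67 of the 4390 named genes on the array, read by 79 probes, and no Thbs gene and no Eln were among them. A value on all 3 arrays was present for 52 of the 67.

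On each of 3 dual-colour arrays, inner medulla RNA from rats given lithium was labelled red and hybridised with green-labelled RNA from control rats. For arrays 1 and 2 the RNA of 2 rats was pooled in each channel, and array 3 compared a single rat with a single rat. Differences between pools or animals are therefore part of the spread between arrays. The labels name no strain, age, sex or lithium dose. A value is a log ratio whose base is not given in the sources used here, after each array's median was subtracted, and folds are therefore printed for base 10 and base 2. A ratio above 0 is read as more RNA with lithium, which is likely from the channels in the labels but is not stated by the deposited table. With the opposite direction every sign below would turn. No dyes were swapped, so for each gene the effects of dye and of lithium cannot be told apart. In tissue RNA, fewer cells of a type and less RNA per cell cannot be told apart either.

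The matrix of the medulla is a scaffold of collagens, laminins, fibronectin and proteoglycans between the ducts, limbs and vessels. Basement membranes under the epithelium are built from laminins and network collagens, and the interstitium holds fibrillar collagens. Integrins are paired alpha and beta chains that tie cells to this scaffold. Mmp, Adam and Adamts genes encode zinc proteases that remodel matrix or shed surface proteins, and Timp genes encode their inhibitors. Lithium given for long is known to harm the concentrating function of the collecting duct, and interstitial fibrosis is known in kidneys exposed to it over years.

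Col10a1 had ratios below 0 on every array and was the 1 gene of the 52 that passed limma's adjusted p of 0.05. Of all 3819 genes and unnamed probes tested, 0.445% passed, 0.236% as higher and 0.209% as lower. Of the 52 genes 33 had a mean ratio above 0 and 19 below, and the median was 0.03 beside 0.01 for all features. These counts leave out the 15 genes empty on array 3, of which 12 read below 0 on array 2. With values on at least 2 arrays required instead, the medians were 0.0133 for 65 genes and −0.005 for all features. Without array 1 both medians were 0.015, so the difference between them was not kept. Apart from Col10a1, most of the 52 genes lay within 0.1 of 0. The same sign on all 3 arrays was found for 16 genes on the higher side and 9 on the lower, against 24.1% and 14.6% of all features, which for 52 genes is a share of 30.8% and 17.3%. At an unadjusted p of 0.05, 8 of the 52 were higher and 7 lower, or 15.4% and 13.5%, against 9.71% and 7.52% of all features.

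**Figure D1:**
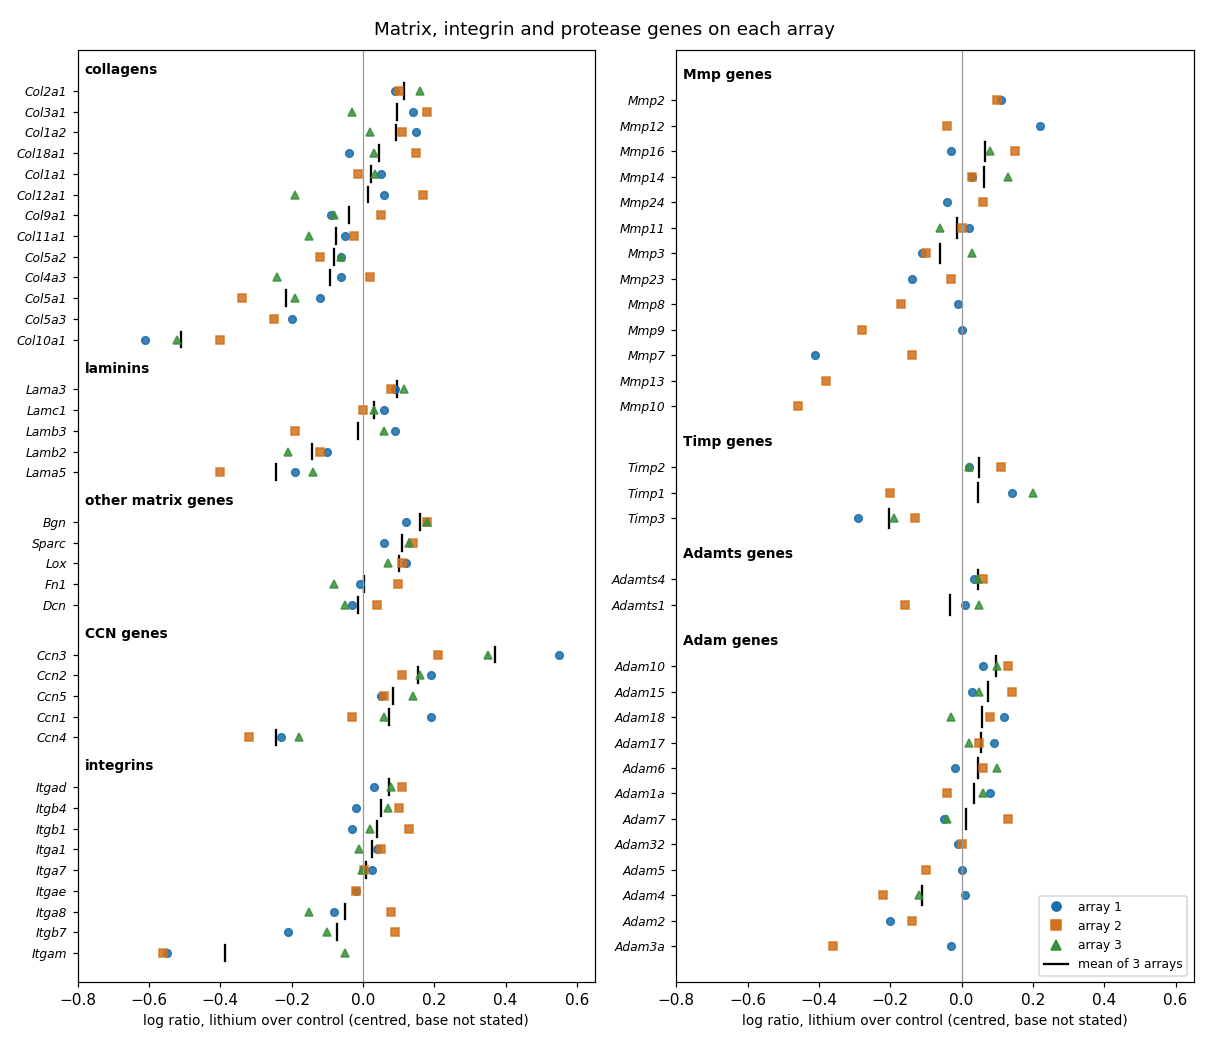
Log ratios (x axis, lithium over control, centred, base not stated) of all 67 genes on array 1 (circles), array 2 (squares) and array 3 (triangles), grouped by role, with a black bar at the mean where all 3 arrays have a value. Col10a1 lies at −0.40 or lower on every array and Ccn3 at 0.21 or higher, while 9 Mmp genes have no point for array 3.

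Counts above and below 0 depend on the centring. Without centring all means move down by 0.02, 29 of the 52 genes lie above 0 and 23 below, and 14 and 11 keep the same sign upward and downward. Among all 3819 features those with the same sign turn from 922 higher and 556 lower to 663 higher and 768 lower.

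**Figure D2:**
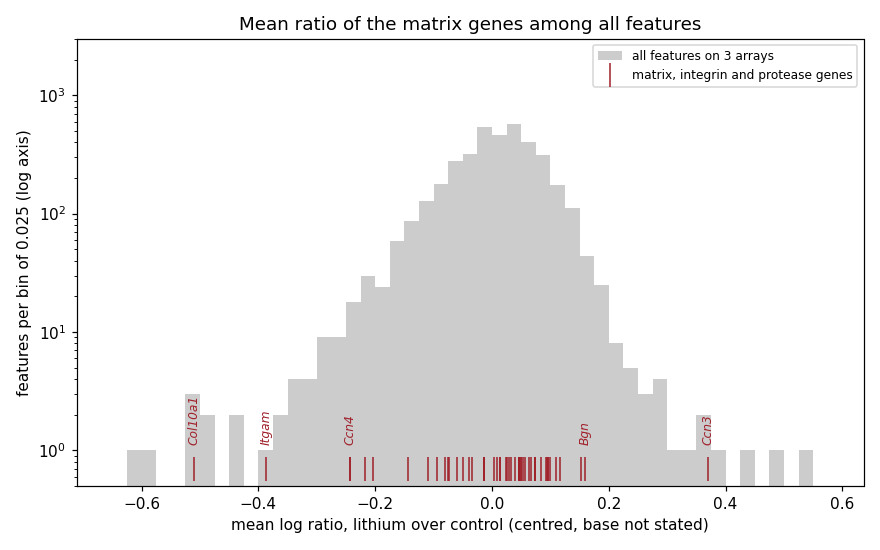
Mean log ratio of 3819 features (grey bars, count per bin of 0.025 on a log axis) with the 52 matrix, integrin and protease genes as red ticks. Col10a1 at −0.51 and Ccn3 at 0.37 stand at the ends, and most ticks fall where most features fall.

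Collagen genes lay on both sides of 0, with the lowest mean in a network-forming chain. Fibrillar chains with 3 values ran from −0.22 for Col5a1 to 0.12 for Col2a1, the highest collagen mean. Of 12 collagen genes with 3 values, 6 lay above 0 and 6 below, and the median of −0.01 turned to 0.00 when the ratios were centred within printing blocks. Col10a1 (gene ID 25681) encodes the type X chain, a short network collagen best known from the growth plate. Its ratios were −0.61, −0.40 and −0.52 on arrays 1, 2 and 3, so all arrays were low and none came near 0. The mean was −0.51 ± 0.11 (SD, n = 3), which is 3.24-fold lower in base 10 or 1.42-fold lower in base 2, with a limma adjusted p of 0.0234. It had the lowest mean but 3 of the 3819 features (rank 4). The call was lost with any 1 array left out, with limma adjusted p-values of 0.743, 0.297 and 0.304 without array 1, 2 and 3, although the mean stayed between −0.57 and −0.46. No feature of the whole data passed with an array left out, so this loss is not particular to Col10a1. A single probe measured Col10a1, and its brightness is not known here.

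The gene is shown with the bases before its start because it alone passed the test. The 250 bases come from RefSeq's table for build GRCr8 at chr20:39737286-39737535, plus strand, with the TATA motif (TATAAA, searched on both strands) in capitals. The motif begins 31 bases before the start. It was found in 12.9% of all 33469 windows of this length and in 12 of the 41 members with an entry. A match is a description of the letters only.
Col10a1: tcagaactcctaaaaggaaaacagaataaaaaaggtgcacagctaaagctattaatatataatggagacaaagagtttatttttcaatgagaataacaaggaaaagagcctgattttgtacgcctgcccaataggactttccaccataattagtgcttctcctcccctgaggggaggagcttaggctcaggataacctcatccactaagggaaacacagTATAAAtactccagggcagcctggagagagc

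Markers of cartilage, where type X collagen is best known, did not pass. Of 5 listed, 4 were measured, 1 above 0 and 3 below, and their median was −0.08. Col2a1, the main fibrillar chain of cartilage, stood at 0.09, 0.10 and 0.16, a mean of 0.12 ± 0.04 (SD, n = 3) with a limma adjusted p of 0.215. Acan, the aggrecan core protein, read −0.12, −0.14 and −0.06, and Pth1r, a hormone receptor of cartilage and kidney, read −0.14, −0.11 and −0.12. A part of such tissue in the value of Col10a1 was not tested.

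The type V chains, which join type I fibrils and limit their width, had ratios below 0 wherever they were measured. Col5a1 read −0.12, −0.34 and −0.19, with a mean of −0.22 ± 0.11 (SD, n = 3) and a limma adjusted p of 0.136. Col5a2 read −0.06, −0.12 and −0.06, with a mean of −0.08 ± 0.03 and an adjusted p of 0.353. Col5a3 read −0.20 and −0.25 on arrays 1 and 2 and was empty on array 3, so it was not tested. Col11a1, a relative of the type V chains, read −0.05, −0.03 and −0.15 (adjusted p = 0.409). None of these passed, and array 2 was the lowest for each type V chain. Array 2 also had the widest spread over all probes, with an SD of 0.198 against 0.135 and 0.115 on arrays 1 and 3.

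The chains of the most abundant fibrils did not share that sign. Col1a2, a chain of type I collagen, read 0.15, 0.11 and 0.02, with a mean of 0.09 ± 0.07 (SD, n = 3) and a limma adjusted p of 0.325. Its partner Col1a1 read 0.05, −0.02 and 0.04, with a mean of 0.02 ± 0.03 and an adjusted p of 0.799. Col3a1, of the thin fibrils of soft tissue, read 0.14, 0.18 and −0.03 (adjusted p = 0.381), so array 3 fell on the other side of 0. Among the listed fibrillar collagens 7 were tested, 4 above and 3 below 0, and the median was 0.02. The difference between the type V chains and the others was not tested, since the split was seen in these values.

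The remaining collagens were spread across 0. Col4a3, a network chain of basement membranes, read −0.06, 0.02 and −0.24 (limma adjusted p = 0.422). Col12a1, which decorates fibrils, ranged from −0.19 on array 3 to 0.17 on array 2. Col18a1, the source of endostatin, ranged from −0.04 to 0.15 and Col9a1 from −0.09 to 0.05. Arrays disagreed in sign for each of these 4 genes.

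Laminin chains are the first layer of a basement membrane, each molecule joining an alpha, a beta and a gamma chain. Of 5 laminin genes 2 were above 0 and 3 below, or 3 and 2 with arrays scaled to an equal spread, and none passed. Lama5, the alpha chain of mature kidney tubules, read −0.19, −0.40 and −0.14, with a mean of −0.24 ± 0.14 (SD, n = 3) and a limma adjusted p of 0.134. Lamb2, a beta chain that pairs with it, read −0.10, −0.12 and −0.21, with a mean of −0.14 ± 0.06 and an adjusted p of 0.176. Both were below 0 on every array, and neither passed. Lamc1, the gamma chain shared by most laminins, stayed near 0 with 0.06, 0.00 and 0.03. Lama3, the alpha chain of stratified and some simple epithelia, read 0.09, 0.08 and 0.12 (adjusted p = 0.270). Its partner Lamb3 read 0.09, −0.19 and 0.06, so array 2 stood apart from the others.

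The other matrix genes were mostly a little above 0. Bgn, biglycan, a small proteoglycan that binds collagen, read 0.12, 0.18 and 0.18. Its mean was 0.16 ± 0.03 (SD, n = 3), 1.45-fold in base 10 or 1.12-fold in base 2, with a limma adjusted p of 0.140. Sparc, a collagen-binding matricellular protein, read 0.06, 0.14 and 0.13 (adjusted p = 0.238). Lox, the enzyme that cross-links collagen and elastin, read 0.12, 0.11 and 0.07 (adjusted p = 0.256). These 3 genes were above 0 on every array and did not pass.

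Fibronectin and decorin stayed around 0. Dcn, decorin, a close relative of biglycan, read −0.03, 0.04 and −0.05, with a mean of −0.01 ± 0.05 (SD, n = 3) and a limma adjusted p of 0.899. Fn1, fibronectin, which links cells to collagen, read −0.01, 0.10 and −0.08, with a mean of 0.00 ± 0.09 (adjusted p = 0.973). Neither has a direction, since the sign of each mean changes with the centring.

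CCN genes encode secreted matricellular regulators of adhesion and growth, and 2 of them, Ccn3 and Ccn4, lay on opposite sides of 0 on every array. Ccn3 (gene ID 81526), known to restrain growth and fibrosis in several tissues, read 0.55, 0.21 and 0.35. All arrays were high, array 1 the most. The mean of 0.37 ± 0.17 (SD, n = 3), 2.34-fold in base 10 or 1.29-fold in base 2, did not pass, with a limma adjusted p of 0.0853. Ccn4 (gene ID 65154), a known target of beta-catenin signalling, read −0.23, −0.32 and −0.18. All arrays were low, and the mean of −0.24 ± 0.07, 1.75-fold lower in base 10 or 1.18-fold lower in base 2, did not pass (adjusted p = 0.0918). At an adjusted p of 0.10, which 1.28% of all features passed, Ccn3, Ccn4 and Col10a1 were the 3 genes of the 52 past it.

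If the base is 10, these 3 genes were also the ones that differed by 1.5-fold or more, with one sign, on each of the arrays. Ccn3 did so upward, as 0.471% of all features did, and Ccn4 and Col10a1 downward, as 0.733% did. The limma calls and this count use the same ratios.

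Ccn2, connective tissue growth factor, a mediator of fibrosis downstream of TGF-beta, read 0.19, 0.11 and 0.16. Its mean was 0.15 ± 0.04 (SD, n = 3), with a limma adjusted p of 0.150, and no array was below 0.1. Ccn1, an integrin ligand induced by growth factors, read 0.19, −0.03 and 0.06 (adjusted p = 0.496). Ccn5, which lacks the C-terminal domain of its relatives, read 0.05, 0.06 and 0.14 (adjusted p = 0.352). Of the 5 CCN genes 4 had a mean above 0, with a median of 0.08, and none passed.

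**Figure D3:**
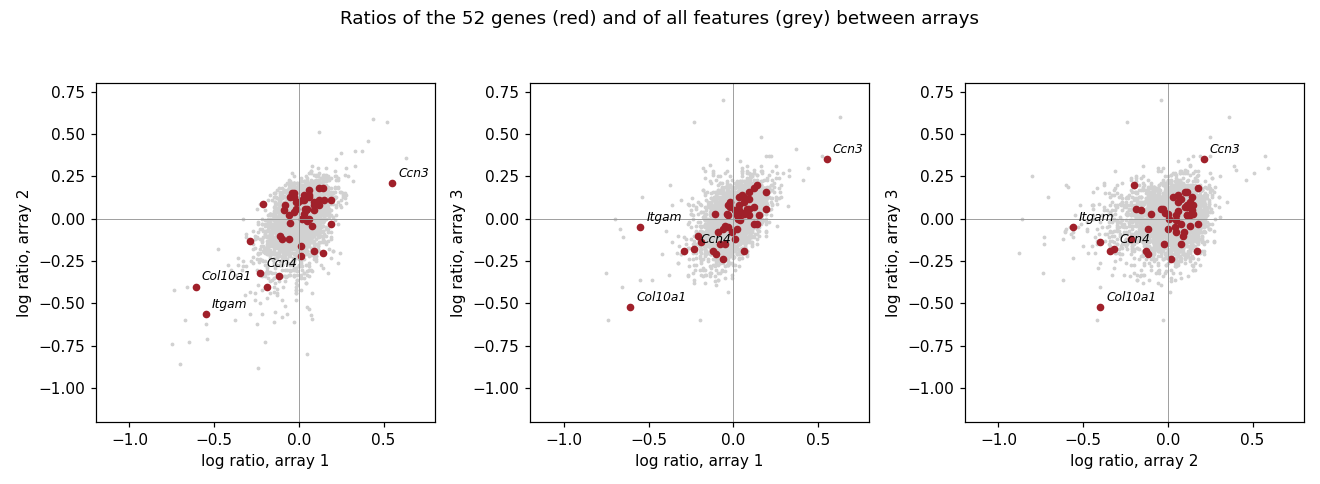
Log ratio of each feature on one array against another (arrays 1 and 2, 1 and 3, 2 and 3), with the 52 genes in red and all 3819 features in grey. Ccn3 lies in the upper right and Col10a1 in the lower left of each panel, while Itgam is low on arrays 1 and 2 and near 0 on array 3.

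The ratios of these genes on different arrays were positively correlated. Across the 52 genes Pearson's r was 0.66 between arrays 1 and 2, 0.74 between arrays 1 and 3 and 0.50 between arrays 2 and 3, and Spearman's rho was 0.44, 0.68 and 0.42. Without Col10a1, Itgam and Ccn3, left out after their values were seen, r was 0.44, 0.67 and 0.39 and rho was 0.33, 0.64 and 0.34. Over all features r was 0.46, 0.48 and 0.16 and rho was 0.36, 0.46 and 0.13. These are correlations across genes, which share arrays and dyes and are not independent replicates. The median SD between arrays was 0.07 both for the 52 genes and for all features.

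Integrin genes had means near 0, apart from a leukocyte chain that was low on 2 arrays. Of 8 integrin genes tested, 5 had a mean above 0 and 3 below (4 and 4 without centring), the median was 0.02, and none passed. Itgam, the alpha M chain of neutrophils and macrophages, read −0.55, −0.56 and −0.05. Arrays 1 and 2 were very low and array 3 was near 0, so the mean of −0.39 ± 0.29 (SD, n = 3) rests on the pooled arrays, and its limma adjusted p was 0.142. Without array 3 the mean was −0.56, and without array 1 or 2 it was −0.31 and −0.30.

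Other leukocyte genes did not share the low values of Itgam. The 7 other leukocyte markers measured had means from −0.07 to 0.16, none passed, and the lowest value of any of them on any array was −0.10. Cd4, of helper T cells and rat macrophages, read 0.18, 0.12 and 0.18. Among leukocyte integrins, Itgad, a relative of Itgam, read 0.03, 0.11 and 0.08 (limma adjusted p = 0.388). Itgb7, the beta chain of gut-homing lymphocytes, read −0.21, 0.09 and −0.10. Itgae, its alpha partner, read −0.02 on both arrays 1 and 2 and was empty on array 3.

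The 4 integrin chains that bind collagen or laminin had means from 0.01 to 0.05. Itgb1, the beta chain of most matrix receptors, read −0.03, 0.13 and 0.02, with a mean of 0.04 ± 0.08 (SD, n = 3) and a limma adjusted p of 0.695. Itgb4, the beta chain of hemidesmosomes, read −0.02, 0.10 and 0.07. Itga1, a collagen receptor chain, read 0.04, 0.05 and −0.01, and Itga7, a laminin receptor chain, read 0.03, 0.00 and 0.00. The spread between arrays was larger than the mean for each of these 4 genes. Itga8, an RGD-binding chain needed for kidney development, ranged from −0.15 on array 3 to 0.08 on array 2.

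Mmp genes were the least completely measured. Of 13 Mmp genes 9 had no value on array 3, and 2 of them, Mmp10 and Mmp13, had one on array 2 alone. In all 15 of the 67 genes were empty on array 3, or 22.4%, against 22.0% of all named genes, so the Mmp group and not the whole set was short of values. The other empty genes were 4 Adam genes, Col5a3 and Itgae.

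On array 2, where all 13 Mmp genes had a value, they ran from −0.46 for Mmp10 to 0.15 for Mmp16. Mmp10, a stromelysin, read −0.46 and Mmp13, a collagenase, −0.38 on array 2, each a single value. Mmp7, matrilysin, a protease of injured tubule epithelium, read −0.41 and −0.14 on arrays 1 and 2. Mmp9, a gelatinase of leukocytes and other cells, read 0.00 and −0.28, and Mmp8, the neutrophil collagenase, −0.01 and −0.17. Mmp12, the macrophage elastase, read 0.22 and −0.04, and Mmp3, a stromelysin measured on all 3, read −0.11, −0.10 and 0.03 (limma adjusted p = 0.532). Mmp2, a gelatinase that cuts type IV collagen, read 0.11 and 0.10 on arrays 1 and 2 and had no value on array 3. Mmp11, also called stromelysin-3, read 0.02, 0.00 and −0.06. Secreted Mmp genes thus lay on both sides of 0.

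Genes empty on array 3 read lower on the other arrays in the whole data, so low Mmp values cannot be set apart from that. On array 2 the 15 genes had a median of −0.14, with 12 below 0, against a median of 0.06 for the 52 others. Over all named genes the medians on array 2 were −0.17 for those empty on array 3 and 0.04 for the rest, with 83.0% of the empty ones below 0. Whether dim spots were the ones left empty was not tested, since no intensities were used.

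**Figure D4:**
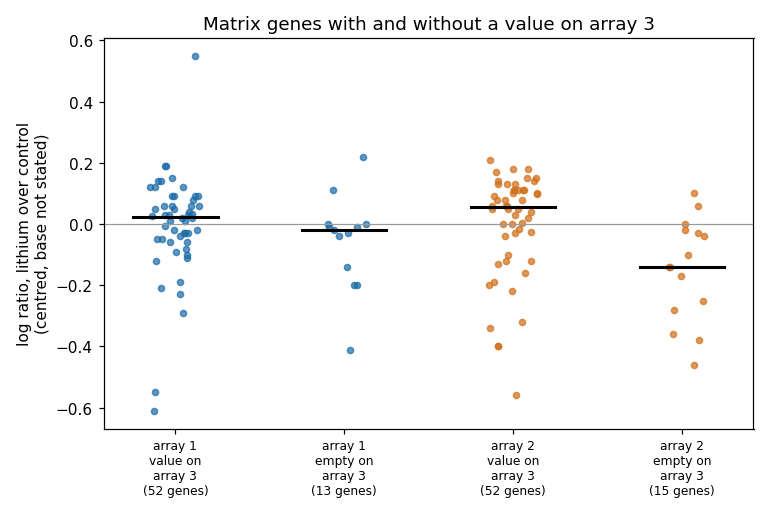
Log ratios on arrays 1 and 2 (y axis) of the genes with and without a value on array 3, with black bars at the medians. On array 2 the 15 genes empty on array 3 have a median of −0.14 and the 52 others one of 0.06.

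The bases before 5 of these Mmp genes are shown because they hold the AP-1 motif, through which some Mmp genes are known to be induced. The AP-1 motif TGANTCA, which reads alike on both strands, was searched in the 250 bases before each start in RefSeq's table for build GRCr8. It was found in 6.34% of all 33469 windows and in 6 of the 41 members with an entry, Lama3 and 5 of the 9 Mmp genes with an entry. All lie on the plus strand, at chr8:12974626-12974672 for Mmp10, chr8:12866545-12866591 for Mmp12, chr8:12782743-12782789 for Mmp13, chr8:12925190-12925236 for Mmp3 and chr8:13132943-13132989 for Mmp7, with the motif in capitals.
Mmp10: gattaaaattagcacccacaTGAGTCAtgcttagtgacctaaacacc
Mmp12: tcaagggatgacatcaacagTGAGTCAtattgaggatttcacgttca
Mmp13: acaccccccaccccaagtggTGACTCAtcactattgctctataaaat
Mmp3: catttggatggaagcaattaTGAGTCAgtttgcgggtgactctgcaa
Mmp7: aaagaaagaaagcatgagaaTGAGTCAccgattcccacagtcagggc

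The motif begins between 61 bases before the start, in Mmp10, and 87, in Mmp12. The ratios of these 5 genes were unlike each other, from −0.46 for Mmp10 to 0.22 for Mmp12 on single arrays. Nothing about the factor follows from the letters or from these ratios.

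The remaining Mmp genes had values on both sides of 0 too. Mmp14, the membrane protease that activates the Mmp2 proenzyme, read 0.03, 0.03 and 0.13, with a mean of 0.06 ± 0.06 (SD, n = 3) and a limma adjusted p of 0.472. Mmp16, another membrane type, ranged from −0.03 to 0.15, and Mmp24 read −0.04 and 0.06. Mmp23 read −0.14 and −0.03. None of the 4 Mmp genes tested passed.

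None of the 3 genes for inhibitors of these proteases passed. Timp3, the inhibitor that stays bound to matrix and also blocks Adam17, read −0.29, −0.13 and −0.19. It was below 0 on every array, with a mean of −0.20 ± 0.08 (SD, n = 3), 1.60-fold lower in base 10 or 1.15-fold lower in base 2, and a limma adjusted p of 0.126. Timp2, which takes part in Mmp2 activation, read 0.02, 0.11 and 0.02 (adjusted p = 0.570). Timp1, an inducible inhibitor that often accompanies fibrosis, read 0.14, −0.20 and 0.20 (adjusted p = 0.793). Array 2 stood apart from the other two for Timp1, and both of its probes were lowest there.

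No Adam or Adamts gene passed. Adam10, a sheddase of many surface proteins, read 0.06, 0.13 and 0.10, with a mean of 0.10 ± 0.04 (SD, n = 3) and a limma adjusted p of 0.274. Adam17, the enzyme that releases tumour necrosis factor and growth factor ligands, read 0.09, 0.05 and 0.02 (adjusted p = 0.527). Adam15, an adhesive Adam of endothelium and epithelium, read 0.03, 0.14 and 0.05 (adjusted p = 0.409). All 3 widely expressed sheddases were above 0 on every array and none passed.

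Adam genes known mainly from testis and epididymis gave mixed values. Adam4 ranged from −0.22 on array 2 to 0.01 on array 1, Adam7 from −0.05 to 0.13 and Adam18 from −0.03 to 0.12. Adam2 and Adam3a, empty on array 3, read −0.20 and −0.14, and −0.03 and −0.36, on the other arrays. Adam5 and Adam32, also empty there, stayed between −0.10 and 0.00, and Adam1a and Adam6 lay between −0.04 and 0.10. Adamts1, a versican-cleaving protease, read 0.01, −0.16 and 0.05, and Adamts4, an aggrecanase, read 0.03, 0.06 and 0.05. The 8 Adam genes tested had a median of 0.05, with 7 above 0, or 6 without centring.

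Several probes measured 8 of the genes, and they did not always agree. The 4 probes of Fn1 read −0.23, −0.08, −0.04 and 0.03 on array 3, a wider spread than that between the arrays' means. The probes of Timp1 read −0.34 and −0.06 on array 2 and lay within 0.1 of each other on arrays 1 and 3. The probes of Lama3 read 0.18 and −0.02 on array 2, and those of Itga7 ranged from −0.12 to 0.13 on array 3. The probes of Adamts1 read −0.10 and 0.12 on array 1, and the lower of them was empty on array 3, so its mean mixes different probes across arrays. The probes of Col1a1, Col11a1 and Adamts4 lay within 0.09 of each other on every array.

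**Figure D5:**
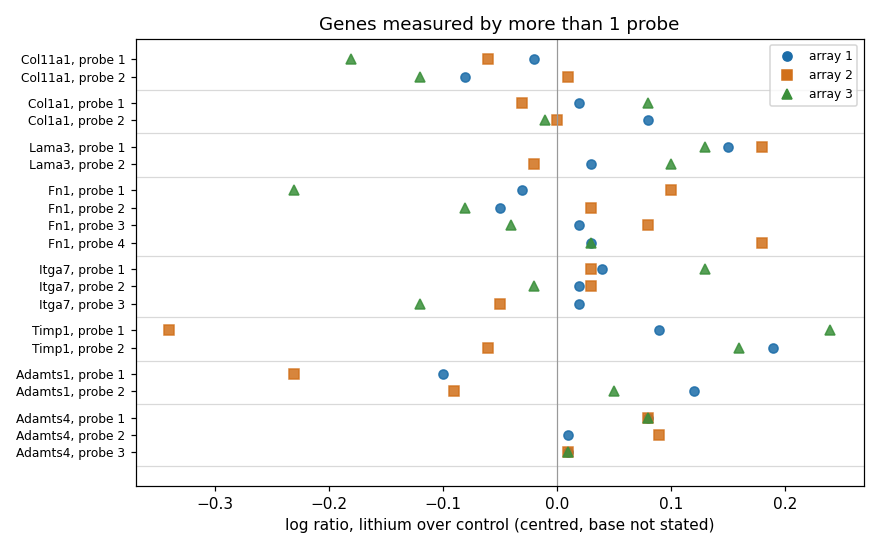
Log ratios (x axis) of each probe of the 8 genes read by more than 1 probe, on array 1 (circles), array 2 (squares) and array 3 (triangles). The 4 probes of Fn1 spread from −0.23 to 0.03 on array 3, and the 2 probes of Timp1 are both lowest on array 2.

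Companion genes of matrix turnover, from lists chosen with earlier results of these data known, gave no calls. Of 22 genes of TGF-beta and BMP signalling 11 were above 0 and 11 below, and the median was −0.01. At an unadjusted limma p of 0.05, 4 of them were lower and 0 higher, against 7.52% and 9.71% of all features. The 4 were Bmp4, Bmp2, Acvr2a and Smad2. Bmp4, a ligand of the BMP family, read −0.65, −0.73 and −0.11. Its mean was −0.50 ± 0.34 (SD, n = 3) with a limma adjusted p of 0.124, so as with Itgam the low values were on arrays 1 and 2. Bmp2 read −0.26, −0.48 and −0.02 (adjusted p = 0.186). Of 5 plasminogen system genes 1 was above 0 and 3 below, with Serpine2, an inhibitor of plasminogen activators, lowest at −0.23 ± 0.07 (adjusted p = 0.0918). Of 7 genes of collagen processing 4 were above 0, led by Ctsk, a collagen-cutting cathepsin, at 0.17 ± 0.03 (adjusted p = 0.136).

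Further matrix glycoproteins and the focal adhesion genes stayed near 0 as groups. Of 20 other glycoprotein and proteoglycan genes 9 were above 0 and 11 below. Among them Cd44, the hyaluronan receptor, read −0.15, −0.43 and −0.11 (limma adjusted p = 0.176), and Mgp, an inhibitor of calcification, read 0.03, 0.20 and 0.10 (adjusted p = 0.286). Of 13 focal adhesion genes 9 were above 0 and 4 below, and the median was 0.02. Actn4, an actin cross-linker of epithelia, was highest at 0.16 ± 0.03 (SD, n = 3, adjusted p = 0.136). No gene of the companion lists passed, where 0.445% of all features did.

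Markers of the cell types in this tissue did not move alike. All 8 collecting duct markers had means above 0, with a median of 0.15, and Hsd11b2 passed as higher. Aqp2, also among these 8, read 0.11, 0.26 and 0.14 (limma adjusted p = 0.153). Aqp3 was the lowest of them, with −0.02, 0.06 and −0.02 and a mean of 0.01, which lies below 0 without centring. The 4 markers of the limbs of Henle had a median of −0.14, and 3 of them lay below 0. The other, Kcnj1, read 0.32, 0.22 and 0.07 (limma adjusted p = 0.150), and its mean of 0.20 lay furthest from 0 among the 4. Of 10 interstitial and smooth muscle markers, the cells that make most fibrillar collagen, 4 were above 0 and 6 below, their median was −0.03, and they ran from −0.24 for S100a4 to 0.10 for Vim. Of 5 endothelial markers on the array, the 3 with a value on every array had means from −0.01 to 0.11. The 1 erythroid marker on the array was empty on array 3. The part of cell makeup in the matrix ratios was not tested.

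Calls beyond Col10a1 depended on how the spread was handled. When each array was first scaled to an equal spread, 7 of the 52 genes passed limma's adjusted p of 0.05, against 2.57% of all features, whose 98 calls split into 35 higher and 63 lower. They were Ccn3, Ccn4, Col10a1, Col5a1, Itgam, Lama5 and Timp3. With a robust prior the same list without Itgam passed, 6 genes, against 2.46% of all features. With 3 arrays an exact sign test of a gene cannot go below p = 0.25. Separately, every limma call draws on the spread of the other features through limma's prior.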

How the data were processed

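The deposited table held log ratios of 5760 probes with 2 decimals, and what the authors did to make them (scanner, background, normalization, filter, log base) is not given in the sources used here. Per the labels, lithium RNA was channel 1 and control RNA channel 2. Values were present for 5582, 5682 and 4287 probes on arrays 1, 2 and 3. The deposited medians were −0.02, −0.04 and 0.00, and scale, centring and direction stay unknown. No intensities were used, and precision is limited by having 3 arrays.

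Probes were named from the platform's annotation, which can be old. A single symbol was given for 5064 probes, 9 had several and 687 were not listed. Of the former, 5043 had gene IDs in a RefSeq gene table of GRCr8, and 0 symbols changed. The array's median over all probes was subtracted and probes of a gene ID were averaged. Features with 3 values were fitted with limma 3.58.1 in R 4.3.3 (intercept only, eBayes, two-sided, Benjamini-Hochberg over 3819 features). The fit was tried on simulated noise drawn from limma's prior for 3819 features, which holds no shared array effects. Of shifts of 0.2, 0.3 and 0.5 added to 50, 50 and 100 of them, 44%, 92% and 99% passed, beside 11 false calls. The simulated arrays had an equal spread, while SDs over all probes were 0.135, 0.198 and 0.115 on arrays 1, 2 and 3. Only 17 features passed in the data, so these shares cannot be read as its power.

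Members and lists were chosen with earlier results of these data known. The array values and adjusted p are given for members past the threshold, for up to 14 highest and up to 14 lowest with the same sign on all arrays (14 of the 16 higher and all 9 lower), and for 22 set genes of which Eln, Col4a1, Itgav and Thbs1 were not among the named probes. Other members, and genes of companion lists beyond the 3 smallest p, were named after their values were seen. The alternatives were other centring (none, on complete features, within 32 blocks), scaling, 2 arrays as a minimum, single probes, array weights, a robust prior, each array left out, exact zeros left out and a threshold of 0.10. Joining genes by symbol was chosen after seeing the data. Tables and plots were made in Python 3.11.15 (matplotlib 3.10.9, numpy 2.4.6, pandas 2.3.3).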

Additional observations from a re-analysis of the deposited data

How the results depend on the processing

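Over 14 alternatives the 31 named members with 3 values gave 427 comparisons, of which 385 kept their direction and their side of the threshold, 29 gained a call, 3 lost it and 10 changed sign. The 3 losses were those of Col10a1 with an array left out. The features called (17) numbered 98 with arrays scaled, 40 with at least 2 arrays, 11 with single probes, 1055 with array weights, 94 with a robust prior, 49 at an adjusted p of 0.10 and 0 without any 1 array, where limma gave 174, 606 and 734 an unadjusted p under 0.05. In the order of scaling, array weights, robust prior and 0.10, the members called (1) numbered 7, 20, 6 and 3, and 0 without any 1 array, with 7, 12 and 12 at an unadjusted p under 0.05. The array weights were 4.524, 0.3709 and 0.5959, so array 1 dominated that fit. The members' median of 0.03 was 0.0117 without centring, where all features had −0.01, and ran from 0.015 to 0.025 with an array left out. Means that changed sign lay near 0. Fn1 was −0.0167 without centring, −0.0133 when centred on complete features, −0.0072 scaled, −0.0083 with array weights and from −0.0438 to 0.045 with an array left out. Dcn was 0.0067 within blocks and from −0.04 to 0.005 with an array left out, Itgb1 was −0.0138 with array weights and from −0.005 to 0.075, and Timp1 ran from −0.03 to 0.17. With probes of 2 gene IDs joined by symbol, chosen after seeing the data, 13 features and the same 1 member passed. Single probes give no value for genes with several. Each array holds both conditions, so its ratio already pairs the lithium and control RNA hybridised together. The arrays form 1 group, and no further pairing was fitted.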
